A study of Mus musculus with 4 samples.

Results

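The multiciliated cell program is described here as 45 genes, chosen by symbol and grouped by role: 8 regulators, 3 genes of centriole amplification and 34 genes of the motile cilium. All 45 were found among the 31053 genes of the count matrices. The genes were followed in 4 single-cell RNA libraries from wild-type, untreated CD1 mice at postnatal day 3, an outbred stock. Of these, 2 libraries were made from oviducts and 2 from uteri, and each organ's 2 replicates were pools of the same 3 and 4 neonates, so a library is a pool of pups and not 1 animal. The comparison is between the organs, in epithelium and in the other cell classes. Nothing in the labels says which pool each replicate number stands for, and p-values measure the spread between these libraries.

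A multiciliated cell carries many motile cilia on its surface, and in the oviduct these cilia help to move the egg and the embryo. The program starts with coregulators of the geminin family and the transcription factors they act with, which stop the cell dividing and launch the building of many centrioles from structures called deuterosomes. The centrioles dock as basal bodies, and the forkhead factor Foxj1 and the RFX factors then drive the genes of the axoneme, the microtubule core with its dynein motors, radial spokes and central pair.

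The filtered matrices held 5716 to 7808 called barcodes and 61117726 to 114419939 UMIs (unique molecular identifiers, each standing for 1 captured RNA molecule) per library. Quality and doublet filters left 20129 cells, 3848 to 6463 per library. Any pair of libraries shared 8 to 15 cell barcodes, at most 0.262% of the smaller library. Epithelial cells were gated one by one with 12 epithelial markers that include none of the 45 genes, which left 131 and 216 cells in the oviduct libraries and 44 and 51 cells in the uterine libraries. Every one of the 12 markers was present in each gated epithelium, at a summed level of 2590 to 3018 CPM, that is UMIs scaled to 1000000 within each class and library, while the 8 mesenchymal markers summed to 48.3 to 147 CPM. Uterine epithelial cells were shallower, with median totals of 7112 and 3336 UMIs per cell against 25132 and 18898 in the oviduct, and the uterine epithelium held 3300673 UMIs in all against 15144161. When all cells were clustered, 3 clusters were epithelial by their markers, and the organs were spread unequally over them. The deepest, of 241 cells with a median of 28943 UMIs, held 88 and 153 oviduct cells and 0 uterine cells. The others, with medians of 1642.5 and 2623 UMIs, held 49, 174, 50 and 109 cells and 94, 57, 42 and 32 cells of oviduct replicates 1 and 2 and uterus replicates 1 and 2. With all 3 clusters in place of the gated cells, 33 of 38 tested genes were called, all as higher in oviduct, but the difference was not tested within a cluster. Of all 12305 genes in that fit, 1809 were called higher and 1139 lower. At the depth of the uterine libraries, a gene with 0 UMIs in the whole uterine epithelium can be bounded only at 3 UMIs, or 0.909 CPM, and such limits and intervals cover counting error only. Between 42.7 and 61.8% of the kept cells of a library met no gate and are outside every class below. The RNA found in near-empty droplets could account for at most 3.81% of any of the 45 genes' counts in oviduct epithelium and 19.9% in uterine epithelium. In sums over a class, fewer cells that express a gene and less RNA of it per cell cannot be told apart.

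The program was far higher in oviduct than in uterine epithelium. Summed over the 45 genes, its level was 650 and 467 CPM in the oviduct libraries and 134 and 125 CPM in the uterine libraries, so the organs did not overlap. In 40 of the 45 genes both oviduct libraries were above both uterine libraries, 2 genes lay the other way and 3 overlapped. Both oviduct libraries were above both uterine ones in 27.0% of the 19052 genes with a UMI in epithelium and in 25.3% of the 12154 genes tested. Of the 45, 17 had 0 UMIs in the uterine epithelium and another 11 had 1 to 3. The quasi-likelihood test of edgeR on the summed counts could be applied to 37 of the genes, of which 32 were higher in oviduct and 1, Plk4, was lower at an adjusted p under 0.05. In that test 23.2% of all genes were called, 14.3% as higher in oviduct and 8.87% as lower. The median fitted log2 difference was 4.02 over the 37 genes and 0.01 over all genes. With the 12 of them that had no uterine UMI set to their lower bound, the median was 2.72. Those 12 entered the test through their oviduct counts alone, so their calls are no support beyond the counts themselves. The 8 genes outside the test for low counts were Gmnc, Cdc20b, Dnah5, Dnah9, Dnah11, Hydin, Spag16 and Cfap52, and a gene enters the test more easily where it is high. With DESeq2 in place of edgeR 21 were called, all higher in oviduct, where 994 of 19052 genes were called higher. Without oviduct replicate 1 the number called also fell, and fewer of the 37 genes entered the test. Without library scaling by the TMM method the median over all genes moved to -0.13, and the split of all calls went from 1741 higher and 1078 lower to 1433 and 1685, while 31 of the 45 were still called higher in oviduct. With epithelial cells of at least 5000 UMIs only, 30 of 35 tested genes were called higher and 1 lower. Of all 12105 genes in that fit, 1765 were called higher and 1109 lower.

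**Figure D1:**
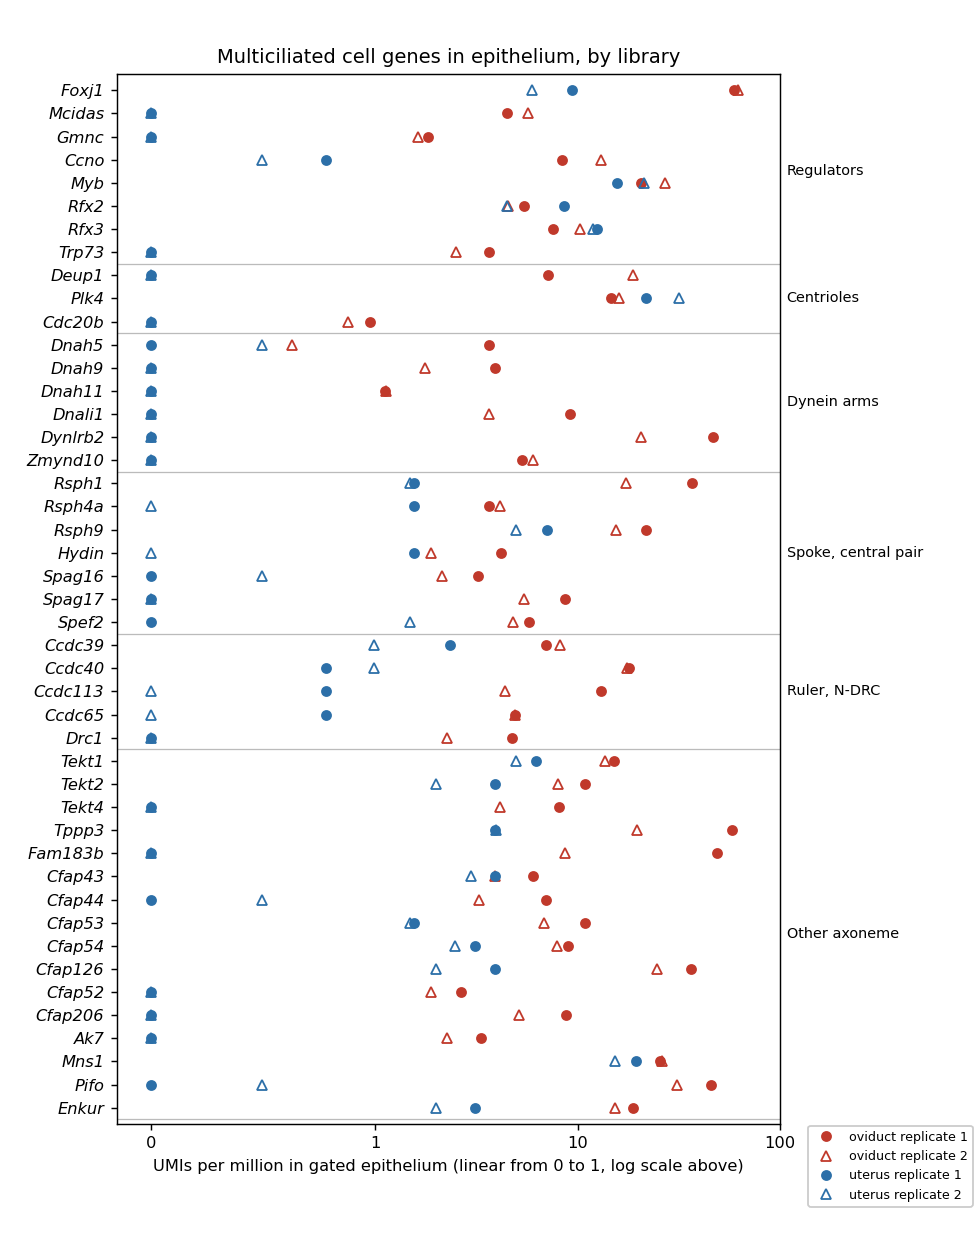
Level of each of the 45 genes in gated epithelium, in CPM on an axis that is linear from 0 to 1 and logarithmic above, with filled circles for replicate 1, open triangles for replicate 2, red for oviduct and blue for uterus. The red symbols lie to the right of the blue ones in 40 genes, and 17 genes have both blue symbols at 0.

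RFX factors bind a sequence called the X-box, and its half-site GTTGCC was therefore searched for on both strands (GGCAAC on the other) in RefSeq promoters of mouse build GRCm38.p6, each running from 250 bases before to 50 bases after a start site. A promoter was matched for 39 of the 45 genes. There was none for Foxj1, Rsph1, Rsph4a, Tppp3, Cfap53 and Cfap54. The half-site stood in at least 1 promoter of 21 of the 39 genes (53.8%), against 14.1% of all 27025 genes in the table. It was found in 6 of 10 regulator and centriole genes and in 15 of 29 axoneme genes. The forkhead motif GTAAACA, also searched for on both strands, was found in 3 of 39 genes (7.69%), against 4.05% of all genes. Neither motif's letters contain the other's, and a match describes letters and not a bound site. The lines that follow give the 200 bases before the start site, 5′ to 3′ on the gene's strand, with the half-site in capitals. They were picked because they hold it and because their genes carry the organ difference: a regulator (Mcidas, chr13:112993668-112993867, plus strand), a deuterosome gene (Deup1, chr9:15627847-15628046, minus strand) and 3 axoneme genes with at most 1 uterine UMI (Dynlrb2, chr8:116504815-116505014, plus strand; Fam183b, chr11:58801961-58802160, minus strand; Pifo, chr3:106001498-106001697, minus strand).
Mcidas: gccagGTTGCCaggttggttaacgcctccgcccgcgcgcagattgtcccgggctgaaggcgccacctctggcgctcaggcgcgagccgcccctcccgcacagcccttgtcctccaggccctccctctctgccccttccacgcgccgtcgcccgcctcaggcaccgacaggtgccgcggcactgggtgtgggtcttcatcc
Deup1: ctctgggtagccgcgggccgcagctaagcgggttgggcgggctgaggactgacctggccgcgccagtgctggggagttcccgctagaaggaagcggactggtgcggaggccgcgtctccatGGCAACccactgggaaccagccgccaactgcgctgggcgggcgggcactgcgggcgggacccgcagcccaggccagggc
Dynlrb2: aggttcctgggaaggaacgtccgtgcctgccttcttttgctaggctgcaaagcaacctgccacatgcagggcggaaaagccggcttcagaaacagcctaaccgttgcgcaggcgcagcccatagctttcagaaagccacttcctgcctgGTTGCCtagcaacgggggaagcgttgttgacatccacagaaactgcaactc
Fam183b: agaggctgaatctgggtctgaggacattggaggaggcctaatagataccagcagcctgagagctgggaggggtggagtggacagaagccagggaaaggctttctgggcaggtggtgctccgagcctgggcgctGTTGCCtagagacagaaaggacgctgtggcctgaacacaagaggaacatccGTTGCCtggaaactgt
Pifo: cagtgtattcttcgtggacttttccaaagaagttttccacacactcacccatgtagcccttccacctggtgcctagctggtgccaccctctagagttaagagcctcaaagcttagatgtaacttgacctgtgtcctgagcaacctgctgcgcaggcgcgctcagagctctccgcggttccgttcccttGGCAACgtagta
In the Fam183b sequence the half-site stands at 2 places, and in the other 4 sequences at 1 place each.

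Among the regulators, 4 of the 7 tested genes were higher in oviduct epithelium and none was lower. Foxj1 (chr11:116330704-116335399), the forkhead factor that turns on motile cilium genes, was at 59.3 and 62.1 CPM in the oviduct libraries and at 9.35 and 5.95 CPM in the uterine libraries. The organs were well apart and the 2 oviduct libraries nearly equal, with a log2 difference of 3.19 (SE 0.26, adjusted p = 4.02e-07). The 24 uterine Foxj1 UMIs came from 14 of 95 cells, and in uterus replicate 2 a single cell held 8 of the 12 (66.7%). Mcidas, which encodes multicilin and stands near the top of the program, had 32 and 45 UMIs in the oviduct libraries (4.46 and 5.65 CPM) and 0 in both uterine libraries. Its level was at least 5.59-fold higher in oviduct (adjusted p = 0.000865). Gmnc, which acts upstream of Mcidas, had 13 UMIs in each oviduct library and 0 in uterus, too few to be tested, and was at least 1.89-fold higher. Ccno, an atypical cyclin needed for centriole amplification, was at 8.36 and 13.1 CPM in oviduct and at 0.779 and 0.496 CPM in uterus, where each library had 1 UMI. The oviduct to uterus ratio of Ccno was 17.9, with a 95% counting interval of 4.87 to 149 (adjusted p = 0.000163). Trp73, a p53 family factor upstream of Foxj1, had 26 and 20 UMIs in oviduct and 0 in uterus, at least 3.34-fold higher (adjusted p = 0.00596).

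The other regulators were not called between the organs. Myb, a transcription factor of cycling progenitors that also acts early in multiciliated cells, was at 20.6 and 27.0 CPM in oviduct and at 15.6 and 21.3 CPM in uterus, with overlapping libraries (log2 difference 0.47, SE 0.26, adjusted p = 0.204). Rfx2 was at 5.43 and 4.52 CPM in oviduct against 8.57 and 4.46 CPM in uterus (log2 difference -0.17, SE 0.41, adjusted p = 0.812). Rfx3 was at 7.52 and 10.3 CPM in oviduct against 12.5 and 11.9 CPM in uterus (log2 difference -0.30, SE 0.30, adjusted p = 0.526). With Plk4 it was one of the 2 genes whose oviduct libraries both lay below the uterine ones. The 95% counting intervals of their oviduct to uterus ratios, 0.494 to 1.41 for Rfx2 and 0.517 to 1.08 for Rfx3, include equal levels. Both RFX factors are also used by cells with a single primary cilium. Without uterus replicate 1 the fitted difference of Rfx2 changed sign, to 0.25.

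Centriole amplification held both directions. Deup1, the scaffold of the deuterosome, had 51 and 149 UMIs in oviduct (7.11 and 18.7 CPM) and 0 in both uterine libraries, which puts it at least 14.5-fold higher in oviduct (adjusted p = 0.000454). Cdc20b, a deuterosome-associated protein gene, had 7 UMIs in each oviduct library and 0 in uterus, too few for the test. Plk4, the kinase that starts centriole duplication in all dividing cells as well as in multiciliated ones, lay the other way. Its level was 14.6 and 16.1 CPM in oviduct and 21.8 and 31.7 CPM in uterus, without overlap (log2 difference -0.70, SE 0.24, adjusted p = 0.0499). This call sat at the threshold: it was kept in 7 of 15 alternative analyses and lost in the others, among them the fit with a replicate block (adjusted p = 0.0785) and the fits without oviduct replicate 1 (adjusted p = 0.145), without oviduct replicate 2 (0.0708) and without uterus replicate 2 (0.564). Beside it, the 10 proliferation genes listed for comparison summed to 696 and 463 CPM in oviduct and 1208 and 1337 CPM in uterine epithelium, and 9 of the 10 were lower in oviduct. Their part in the Plk4 difference was not tested. Ccno (chr13:112987802-112990777), Mcidas (chr13:112993845-113000394) and Cdc20b (chr13:113035111-113091195) are neighbours on the plus strand, with 3067 and 34716 bases between them, and all 3 had at most 1 UMI in each uterine library.

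The dynein genes showed the emptiest uterine epithelium of any group, with 1 UMI over all 6 genes, of Dnah5. Dynlrb2, a dynein light chain gene, had 336 and 163 UMIs in oviduct (46.8 and 20.5 CPM) and 0 in uterus. It was at least 36.3-fold higher in oviduct (adjusted p = 2.20e-05). Dnali1, an inner arm light intermediate chain, was at 9.19 and 3.64 CPM in oviduct and 0 in uterus, at least 6.90-fold higher (adjusted p = 0.00231). Zmynd10, a factor of dynein arm assembly, was at 5.29 and 6.03 CPM in oviduct and 0 in uterus, at least 6.25-fold higher (adjusted p = 0.000483). Dynlrb2, Dnali1 and Zmynd10 entered the test through their oviduct counts alone, so their adjusted p-values are no support beyond the counts. The 3 heavy chain genes were sparse. Dnah5 had 26 and 5 UMIs in oviduct, Dnah9 had 28 and 14 and Dnah11 had 8 and 9, and none of them entered the test.

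Of 7 radial spoke and central pair genes, 5 were tested and all 5 were higher in oviduct. Rsph1, a radial spoke head protein, was at 36.9 and 17.3 CPM in oviduct and at 1.56 and 1.49 CPM in uterus (log2 difference 4.27, SE 0.57, adjusted p = 5.18e-05). Rsph9, another spoke head gene, was at 21.9 and 15.4 CPM in oviduct and at 7.01 and 4.96 CPM in uterus, a smaller gap with no overlap (log2 difference 1.82, SE 0.34, adjusted p = 0.00109). Spag17, of the central pair, was at 8.64 and 5.40 CPM in oviduct and 0 in uterus, at least 7.63-fold higher (adjusted p = 0.000413). Rsph4a and Spef2 were called with 2 and 3 uterine UMIs, and the call of Rsph4a was lost without uterus replicate 2 (adjusted p = 0.257) and with DESeq2 (0.219).

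All 5 genes of the axonemal ruler and the nexin-dynein regulatory complex were tested and all were higher in oviduct. Ccdc40, whose product sets the axonemal repeat together with that of Ccdc39, was at 17.8 and 17.6 CPM in oviduct and at 0.779 and 0.991 CPM in uterus. The replicates of each organ were close, and the ratio was 19.5 with a counting interval of 6.59 to 95 (adjusted p = 5.91e-06). Ccdc39 itself was at 6.97 and 8.16 CPM against 2.34 and 0.991 CPM (log2 difference 2.43, SE 0.52, adjusted p = 0.00286). Ccdc113 was at 13.1 and 4.39 CPM in oviduct, with 1 UMI in uterus, so that its ratio of 28.1 had a counting interval of 4.96 to 1119.

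Among the tektins, Cfap genes and remaining axoneme genes, 14 of 15 tested were higher in oviduct and Cfap43 was not called. Tppp3, a microtubule-bundling protein gene, was at 58.0 and 19.6 CPM in oviduct and at 3.90 and 3.97 CPM in uterus (log2 difference 3.42, SE 0.57, adjusted p = 0.000437). Pifo, a protein of the ciliary base, was at 45.7 and 30.9 CPM in oviduct, with 0 and 1 UMI in uterus. Its ratio was 125, with a counting interval of 22.4 to 4949.8 (adjusted p = 6.42e-07). Cfap126, a basal body and axoneme protein gene also known as Flattop, was at 36.2 and 24.7 CPM in oviduct and at 3.90 and 1.98 CPM in uterus (log2 difference 3.60, SE 0.40, adjusted p = 8.37e-06). Fam183b had 350 and 69 UMIs in oviduct and 0 in uterus, at least 30.4-fold higher (adjusted p = 0.00194), although its 2 oviduct libraries were 5.63-fold apart. That bound covers counting error only and not the spread between cells. Of the 350 UMIs, 215 and 112 came from 2 cells. Without the 8 cells richest in the 45 genes, described below, Fam183b was at 3.33 and 4.45 CPM in oviduct. The smallest called difference among the genes higher in oviduct was that of Mns1, at 25.6 and 26.1 CPM against 19.5 and 15.4 CPM (log2 difference 0.74, SE 0.24, adjusted p = 0.0322), and the call was kept in 9 of 15 alternatives. It was lost, among others, with the replicate block (adjusted p = 0.0593) and without oviduct replicate 1 (0.0584), oviduct replicate 2 (0.0901) or uterus replicate 2 (0.223). Cfap43 was at 5.99 and 3.89 CPM against 3.90 and 2.97 CPM (log2 difference 0.69, SE 0.48, adjusted p = 0.332). Protein-coding genes overlap 8 of the 45 on the opposite strand, Rsph9, Dnali1, Spag17, Ccdc39, Cfap43, Mns1, Cdc20b and Dnah11. Itprip overlaps Cfap43 on the same strand as well, and the strand setting of the counting is not given in the sources used here.

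**Figure D2:**
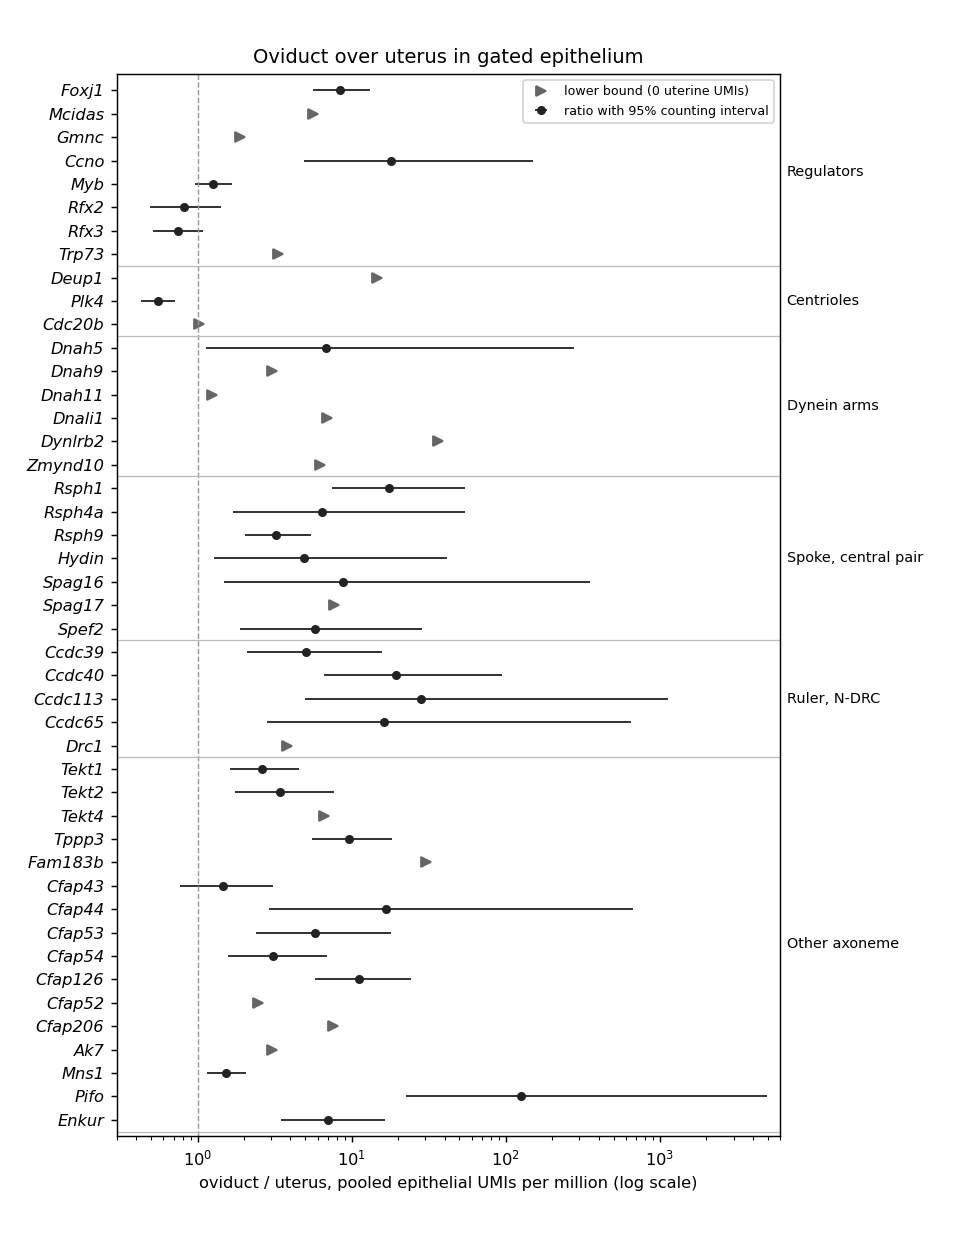
Ratio of oviduct to uterine level for each gene, from epithelial UMIs pooled over the 2 libraries of an organ, on a log axis. Points with lines are ratios with 95% counting intervals, triangles are lower bounds for the 17 genes with 0 uterine UMIs, and the dashed line marks equal levels. Plk4 lies left of the line, the intervals of Myb, Rfx2, Rfx3 and Cfap43 cross it, and the remaining genes lie right of it.

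The 45 genes were next compared between epithelium and mesenchyme of the same libraries, in one edgeR model with the library as a block. In the oviduct 43 genes were tested, 38 were higher in epithelium and 2, Rfx3 and Plk4, were lower. Of all genes 34.7% were called higher and 34.6% lower there. DESeq2 called 31 as higher and 2 as lower in the oviduct, where it called 3253 of all 22388 genes higher and 3311 lower. The call of Tppp3 was kept in 1 of 3 alternatives, with log2 differences of 0.32 to 0.45. Those of Ccno, Cfap52, Fam183b, Gmnc, Rfx2, Rsph9 and Spag16 were kept in 2 of 3. Without the 8 cells richest in the 45 genes, described below, Tppp3 was at 15.5 and 14.7 CPM in oviduct epithelium. In oviduct mesenchyme it was at 28.6 and 26.1 CPM. In the uterus 5 of 43 were higher in epithelium, where 23.3% of all genes were, and 7 were lower, where 29.6% of all genes were (53.0% in either direction). The 5 were Foxj1, Myb, Rfx2, Tekt1 and Cfap126, and the 7 were Ccno, Rfx3, Plk4, Rsph9, Ccdc39, Tekt2 and Tppp3. DESeq2 called 4 as higher and 3 as lower in the uterus, where it called 2549 of all 22388 genes higher and 2784 lower. Foxj1 was higher in epithelium by 5.60 log2 units (SE 0.165, adjusted p = 1.34e-28) in the oviduct and by 2.39 (SE 0.44, adjusted p = 1.62e-05) in the uterus. Without uterus replicate 2, a setting chosen after seeing the data, the uterine value of Foxj1 was 2.66 (SE 0.64, adjusted p = 0.000213), and without uterus replicate 1 it was 2.13 (SE 0.61, adjusted p = 0.00196). Myb was enriched to a like degree in both, by 3.79 log2 units (SE 0.20, adjusted p = 3.78e-20) and 3.98 (SE 0.37, adjusted p = 3.96e-12). Uterine epithelium thus held Foxj1 RNA above the mesenchymal level, which was 1.18 to 1.28 CPM in the 4 libraries. Mcidas, Gmnc, Trp73, Deup1 and every dynein gene but Dnah5 were at 0 in uterine epithelium, but most of them were sparse in the oviduct too. At the depth of the uterine epithelium, 0 counts of such sparse genes cannot show a lack relative to Foxj1.

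The difference of the epithelial enrichment between the organs was tested as an interaction, and 16 of 43 genes passed. In 15 the level in epithelium relative to mesenchyme was higher in the oviduct, and in Plk4 lower (log2 difference -0.67, adjusted p = 0.0317). Among the 15, Ccno, Rsph9, Ccdc39, Tekt2 and Tppp3 were called below mesenchyme in the uterus. Over the alternatives, epithelium against mesenchyme was 0.32 to 0.45 log2 units for Tppp3 in the oviduct and -2.95 to -2.86 in the uterus. For Ccno it was 0.86 to 0.94 and -3.54 to -3.39. Of all genes 19.1% passed, 12.8% with a stronger enrichment in the oviduct and 6.38% with a weaker one. Without TMM scaling the split over all genes moved from 1811 stronger and 905 weaker to 1204 and 1748, with 15 and 1 of the 45 as before. The call of Plk4 was kept in 6 of 10 alternatives. It was lost with DESeq2 (adjusted p = 0.292) and without oviduct replicate 1 (0.109), oviduct replicate 2 (0.118) or uterus replicate 2 (log2 difference -0.42, adjusted p = 0.487). Foxj1 differed by 3.21 log2 units (SE 0.51, adjusted p = 6.58e-06), Ccno by 4.40 (SE 0.69, adjusted p = 4.63e-06), Ccdc40 by 4.69 (SE 0.80, adjusted p = 1.94e-05) and Tppp3 by 3.36 (SE 0.45, adjusted p = 2.01e-07). For Myb the difference was -0.19 (SE 0.45, adjusted p = 0.835). The interaction says little for genes at 0 in both uterine classes, such as Fam183b, Spag17, Dnali1, Tekt4 and Cfap52, or nearly so, such as Pifo.

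Outside the epithelium the summed level of the genes was lower than in oviduct epithelium. On average over the 4 libraries, 35 of the 45 were highest in epithelium among the classes with at least 20 cells in every library, myeloid cells left out. Their summed level was 147 to 151 CPM in mesenchyme, 113 to 129 in smooth muscle, 131 to 212 in mesothelium, 194 to 227 in pericytes, 71.4 to 82.9 in blood endothelium and 47.4 to 78.1 in myeloid cells. Some genes were highest elsewhere. Tppp3 was at 89.9 to 112 CPM in pericytes, above every epithelial library, Plk4 was at 37.8 to 51.8 CPM in pericytes, and Rfx3 was at 17.7 to 22.0 CPM in mesenchyme. In mesothelium, Tekt2 reached 24.9 CPM, Cfap54 25.8 CPM, Ccdc39 12.6 CPM and Ccno 11.1 CPM. That Ccno value was of uterus replicate 2, and Ccno reached 13.1 CPM in the epithelium of oviduct replicate 2. By contrast Pifo, Mcidas and Fam183b stayed under 1 CPM in each library of every other class, where their highest levels were 0.822, 0.652 and 0.652 CPM.

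Between the organs, 1 of 19 tested genes was called in mesenchyme, where 25.1% of all genes were. It was Dnah11, at 1.78 and 1.44 CPM in the oviduct and 0.140 and 0.107 CPM in the uterus (log2 difference 3.66, SE 0.62, adjusted p = 0.000637). Tekt2, lower in the oviduct by a log2 difference of -0.63 (adjusted p = 0.0530), was called as well with the replicate block (adjusted p = 0.0184) and with doublets kept (0.0359). In mesothelium 1 of 15 was called, where 4.29% of all genes were (2.28% higher in oviduct and 2.01% lower). It was Cfap54, at 25.8 and 25.6 CPM in the oviduct and 12.4 and 8.30 CPM in the uterus (log2 difference 1.31, SE 0.31, adjusted p = 0.0357). In smooth muscle 5 of 15 were called, where 27.0% of all genes were. Myb and Ccdc65 were higher in the oviduct there, and Ccno, Tekt2 and Ccdc40 were higher in the uterus, with Ccno at 4.11 and 4.50 CPM against 10.4 and 9.17 CPM (log2 difference -1.23, SE 0.22, adjusted p = 0.000396). The smooth muscle direction of Ccno, Tekt2 and Ccdc40 was opposite to that in epithelium. With 5 of 15 called beside 27.0% of all genes, these calls are not read as a trait of the 45 genes. With edgeR none of 7 tested genes was called in pericytes (6.48% of all genes, 4.19% higher in oviduct and 2.29% lower; 1 of the 7 at an unadjusted p under 0.05) and none of 8 in blood endothelium (3.62% of all genes, 2.88% higher and 0.734% lower; 2 of the 8 unadjusted). With the replicate block Tppp3 was called in blood endothelium (log2 difference 1.46, adjusted p = 0.0452, against 0.146 without the block). In myeloid cells none of the 45 had enough counts to be tested.

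**Figure D3:**
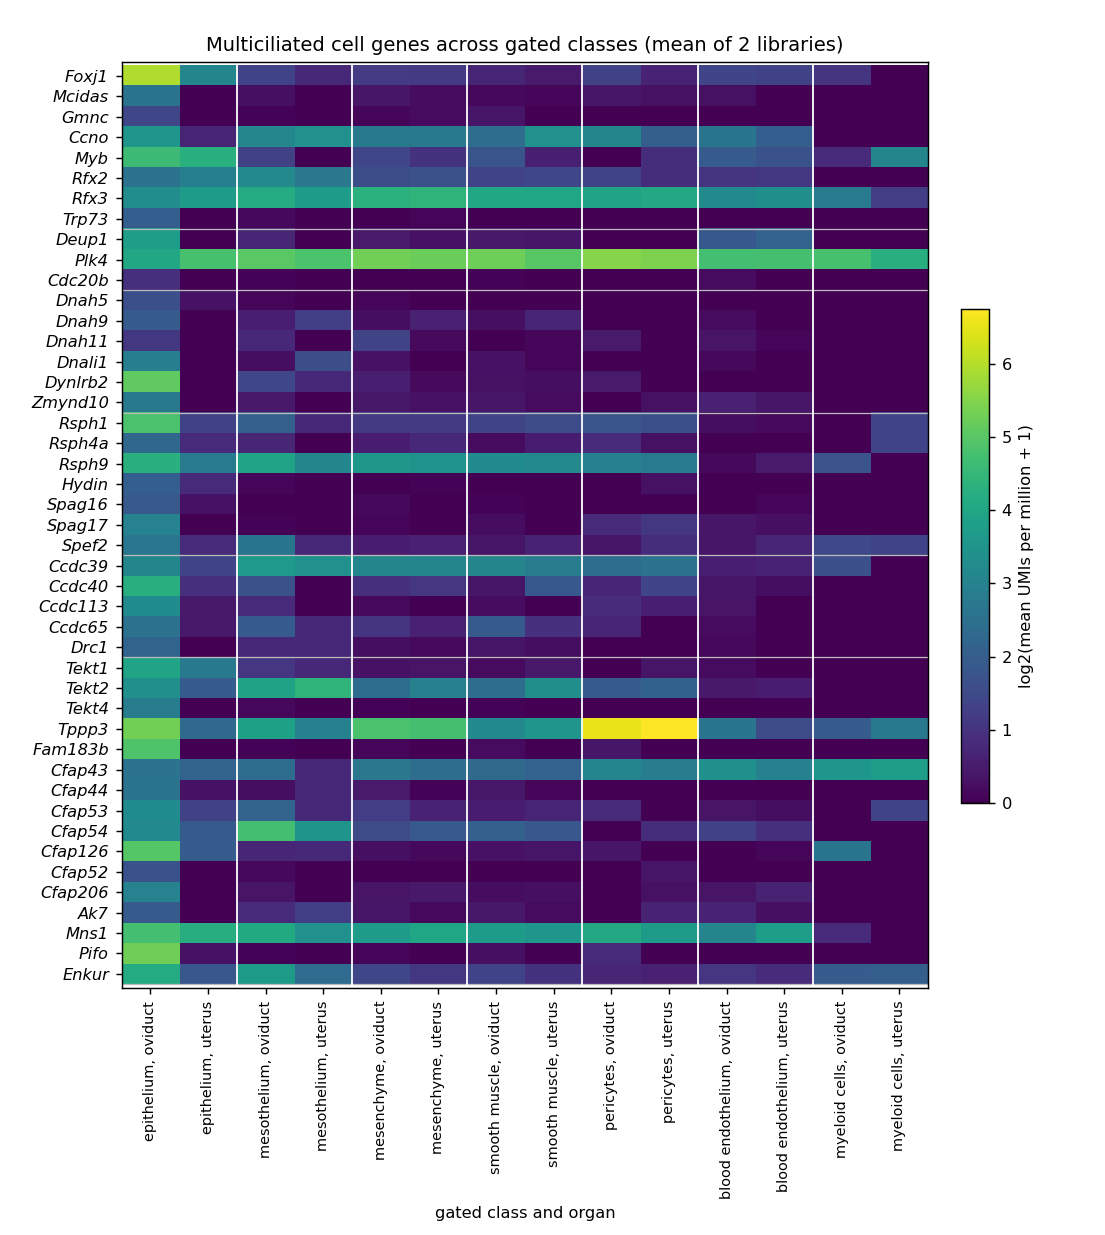
Mean level of each of the 45 genes in the 7 gated classes of each organ, as log2 of CPM plus 1, averaged over the 2 libraries. The oviduct epithelium column is the brightest for most genes, the uterine epithelium column is dark for the dynein group, and Tppp3 and Plk4 are bright in pericytes.

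Single epithelial cells were then examined. Foxj1 had a UMI in 37.4 and 37.0% of oviduct epithelial cells and in 20.5 and 9.80% of uterine ones, but the uterine cells were shallower. After each cell was thinned to 3000 UMIs, 6 of 112 (5.36%, exact 95% interval 1.99 to 11.3) and 24 of 173 (13.9%, 9.10 to 19.9) oviduct cells had one. In the uterus it was 3 of 35 (8.57%, 1.80 to 23.1) and 1 of 27 (3.70%, 0.0937 to 19.0), so at this depth the shares do not separate the organs and no order is read from them. At 10000 UMIs per cell the shares were 25% of 88 and 27.7% of 130 oviduct cells, against 1 of 21 and 0 of 22 uterine cells, the latter allowing up to 13.6% (3 of 22 cells; the exact 95% interval reaches 15.4%). Mesenchymal cells, which serve as background, had Foxj1 in 0.732 to 1.57% at 10000 UMIs.

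The genes differed widely in how many oviduct epithelial cells carried them, counted first without thinning. With 25% chosen as a bound after the values were seen, 8 genes had a UMI in at least that share of cells in both oviduct libraries, among them Foxj1, Pifo (36.6 and 32.9%), Ccdc40 (33.6 and 28.2%), Cfap126 (32.8 and 31.0%) and Enkur (29.8 and 27.3%). In the uterus Pifo was found in 1 of 95 cells, Ccdc40 in 3, and Cfap126 and Enkur in 7 each. The other 3 of the 8 were Myb, Plk4 and Mns1, which were found in 23 to 28 of the 95 uterine cells. These uterine counts are unthinned too, from shallower cells, with medians of 7112 and 3336 UMIs against 25132 and 18898 in oviduct. They are therefore not a comparison of the organs at equal depth. At the other end, 6 genes were in under 5% of cells in both oviduct libraries: Fam183b, in 4 of 131 and 7 of 216 cells, and Cdc20b, Dnah5, Drc1, Tekt4 and Cfap52. As background, the unthinned shares in oviduct mesothelium, with medians of 19259 and 16622 UMIs per cell, were 0.353 and 0% for Pifo, 6.71 and 5.57% for Ccdc40 and 2.83 and 0.929% for Cfap126. For Enkur they were 27.6 and 21.7%, near the epithelial shares, so the Enkur share is not read above background. With every cell thinned to 10000 UMIs, Pifo was in 15.9 and 22.3% of oviduct epithelial and 0 and 0% of mesothelial cells, Ccdc40 in 18.2 and 15.4% against 3.63 and 2.31%, and Cfap126 in 14.8 and 16.9% against 1.61 and 0.385%. Enkur was in 5.68 and 16.9% against 9.27 and 10.0%, so the classes overlapped for it. Fam183b RNA, 350 UMIs in oviduct replicate 1, sat in a handful of cells.

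Many of the genes were found together in few cells. After thinning to 3000 UMIs, 2 of 112 cells in oviduct replicate 1 and 6 of 173 in oviduct replicate 2 had at least 10 of the 45 genes, and 0 of 35 and 0 of 27 uterine cells did. Those 0 counts allow a share of up to 8.57 and 11.1% (3 of 35 and 3 of 27 cells), and their exact 95% intervals reach 10.0 and 12.8%. The 8 cells had 10 to 28 of the genes and the next highest cell had 7. No cell of the other 6 classes reached 10 at this depth. Although these cells made up 1.53 and 2.78% of gated oviduct epithelium and 3.91 and 1.24% of its UMIs, they held 45.6 and 29.3% of the UMIs of the 45 genes. Without them, a choice made after seeing the data, the summed level was 368 and 334 CPM in the oviduct libraries, still above the 134 and 125 CPM of the uterus, and 38 of 45 genes kept both oviduct libraries above both uterine ones. The share of all genes that did so was not computed without these cells. With them it was 27.0% of the 19052 genes with a UMI.

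**Figure D4:**
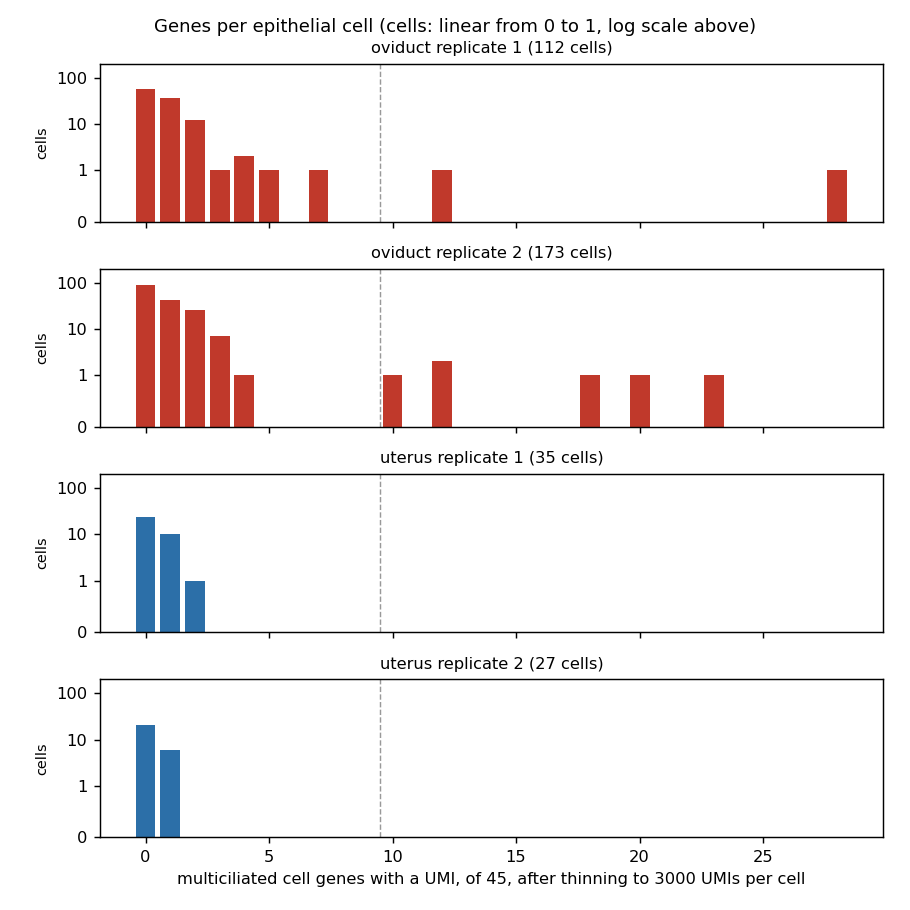
Number of the 45 genes with a UMI per epithelial cell after thinning to 3000 UMIs (horizontal axis) against the number of cells (vertical axis, linear from 0 to 1 and logarithmic above), by library. To the right of the dashed line, at 10 genes or more, lie 2 and 6 oviduct cells and no uterine cell.

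The 8 cells are too few to compare the 2 oviduct libraries, and their early and late genes are described cell by cell. Of the 6 cells of replicate 2, 5 had Mcidas, 5 had Deup1, 4 had Ccno and 3 had Fam183b UMIs. Of the 2 cells of replicate 1, none had Mcidas, 1 had Deup1, 1 had Ccno and both had Fam183b. The shallowest cells of replicate 2 held 3317, 3551 and 4548 UMIs, so genes can be missed in them by depth. The cell with 3317 UMIs had none of Mcidas, Ccno and Deup1 but had Fam183b. The cells of replicate 1 had 215 and 112 UMIs of Fam183b, 155 and 154 of Tppp3 and 121 and 93 of Dynlrb2. The richest cell of replicate 2 had 13 UMIs of Mcidas, 35 of Ccno and 54 of Deup1 beside 65 of Dynlrb2. The first cell of replicate 1 had 249079 UMIs in all, far above the library's median of 11890.5 per barcode, passed the doublet step, and still had 12 of the genes when thinned. Whether its barcode holds more than 1 cell was not tested.

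**Figure D5:**
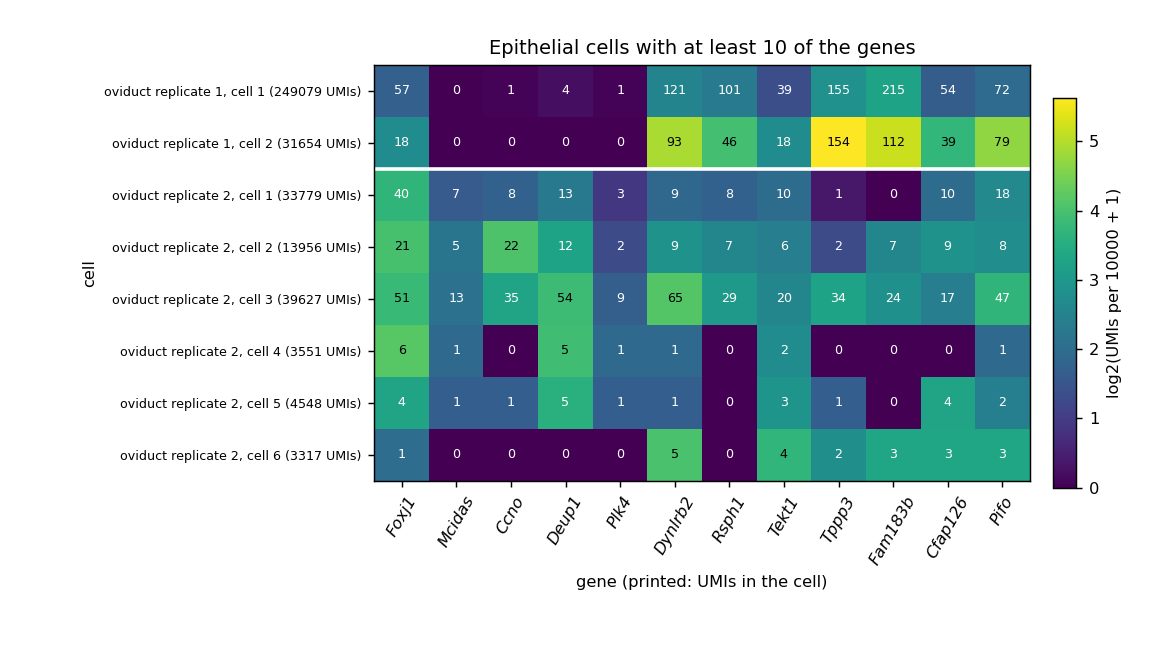
UMIs of 12 of the genes in the 8 oviduct epithelial cells with at least 10 of the 45 genes after thinning; the numbers are UMIs in the whole cell and the colour is log2 of UMIs per 10000 plus 1. Fam183b and Tppp3 lead in the 2 cells of replicate 1, and Mcidas, Ccno and Deup1 are found mostly in the cells of replicate 2.

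The sums over the epithelium contain these 8 cells, and the replicates were compared with and without them. With them, 28 of the 34 axoneme genes were higher in oviduct replicate 1 than in replicate 2, 18 beyond counting error, and none was lower beyond it. Without them, a choice made after seeing the data, 18 of 34 were higher, 3 beyond counting error (Dynlrb2, Rsph1 and Rsph9), and 1 was lower beyond it (Rsph4a). Ccno had a ratio of replicate 1 to replicate 2 of 0.640 (95% counting interval 0.458 to 0.888) with the cells and of 1.77 (1.16 to 2.74) without them, at 8.55 and 4.83 CPM, so its direction turned. Mcidas went from 0.789 (0.485 to 1.27), within counting error, to 2.03 (1.10 to 3.84). The cells were picked by these same genes, 2 from replicate 1 and 6 from replicate 2, so the selection itself moves these ratios. The intervals cover counting error only, and no order of the replicates is read from the values without the cells. Of the 11 regulator and centriole genes, 8 were higher in replicate 1 without the cells, 3 beyond counting error (Mcidas, Ccno and Trp73), and none was lower beyond it. Deup1 went from 0.380 (0.271 to 0.525) to 0.894 (0.597 to 1.33) and Myb from 0.764 (0.615 to 0.946) to 0.911 (0.721 to 1.15), both within counting error without the cells. Fam183b went from 5.63 to 0.750 (0.423 to 1.3), and Tppp3 from 2.96 to 1.05 (0.801 to 1.38). Foxj1 was within counting error both ways, at 0.955 (0.837 to 1.09) and 1.08 (0.928 to 1.25). The 2 rich cells of replicate 1 held 93.4% of its Fam183b and 74.3% of its Tppp3 UMIs, and the 6 of replicate 2 held 63.5% of its Ccno and 59.7% of its Deup1 UMIs. For Foxj1 the share was 17.6 and 24.8%, and for Ccdc40 10.9 and 5.00%.

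Oviduct cells with a Foxj1 UMI also had more of the other 44 genes. At 10000 UMIs per cell, 22 cells of replicate 1 with Foxj1 had a median of 3 other genes and 66 without had 2, and in replicate 2 the medians were 3 in 36 cells and 1 in 94. The summed level of the other genes was 1845 and 1261 CPM in cells with a Foxj1 UMI and 212 and 201 CPM in cells without. Of the 8 rich cells, which all had Foxj1 UMIs before thinning, 5 had the 10000 UMIs needed to enter these sums. The medians were closer together than the sums. In the uterus at most 3 cells per library had a Foxj1 UMI after thinning, too few for the same split.

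Other genes of the pathway, listed apart from the 45, are given by role, each list with its 3 highest genes in oviduct epithelium. Of 24 dynein genes 14 were tested, and 7 were higher in oviduct and none was lower (median log2 difference 1.60). Ccdc114, a docking factor, was at 14.3 and 14.4 CPM against 5.45 and 3.47 CPM and was called, as was Ttc25 (log2 difference 2.21), while Spag1 was not (0.84, adjusted p = 0.159). Of 13 spoke and central pair genes 9 were tested, and 7 were higher and none lower (median 2.67): Nme5 was at 27.7 and 24.4 CPM against 0 and 2.48 CPM, Ccdc189 differed by 1.84 log2 units, and Nme7 was not called (0.10, adjusted p = 0.803). Of 34 other axoneme genes 17 were tested, and 13 were higher and none lower (median 2.25). Mlf1 was at 62.4 and 46.3 CPM against 21.0 and 14.4 CPM, while Tubb4b (log2 difference -0.51, adjusted p = 0.163) and Gas8 (0.38, adjusted p = 0.261) were not called. All 21 intraflagellar transport genes, which also build primary cilia, were tested, and 5 were higher and none lower (median 0.35), and Ift20 (log2 difference 0.39, adjusted p = 0.155), Ift74 and Ift43 were not called. Of 20 centriole and basal body genes 18 were tested, and 2 were higher and 1 lower (median -0.01), and Pcm1, Cep164 and Cby1 were not called. The 2 were Spice1 and Fam92b and the 1 was Stil, a partner of Plk4 in centriole duplication, all named after their values were seen. Of 10 other regulators 7 were tested, none was higher and 1, Gmnn, which encodes geminin, was lower (log2 difference -0.78, adjusted p = 0.0110), and Tfdp1, Rfx7 and E2f5 were not called. All 10 proliferation genes were tested, and 9 were lower in oviduct and none higher. Among them Top2a (-1.04), Cenpf (-0.63) and Mki67 (-1.26) were lower. These counts stand beside 14.3% of all genes called higher and 8.87% called lower.

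Genes outside the list were also ranked by how closely their level followed the sum of the 45 over oviduct epithelial cells of at least 3000 UMIs, 112 in replicate 1 and 173 in replicate 2, among 10154 genes. Mlf1 came first, with Pearson correlations of 0.76 and 0.69, followed by Erich2 (0.69 and 0.64), Nme5 (0.66 and 0.62), Efcab10 (0.59 and 0.60) and Dnajb13 (0.57 and 0.59). Further down were Ropn1l, Lrrc34, Smim5, Fam81a, Oscp1, Tmem107, Caly, B9d1, Casc1 and Dydc2. The cells of a library share its depth and the same few rich cells weigh on all these values, so they are a description.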

How the data were processed

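Droplet libraries of oviduct and uterus cells were deposited as UMI count matrices, filtered and raw. Per the file headers the filtered counts came from Cell Ranger 6.0.1 and the raw ones from version 4, and the submitters' processing notes name Cell Ranger, Seurat 4.2.3 and mm10. For the counting, the annotation and the strand setting are not given in these sources. From the deposited counts, a cell entered with 500 or more genes and with mitochondrial UMIs of 15% or less, and Scrublet's highest-scoring barcodes were removed at 0.8% per 1000 barcodes, since its automatic threshold marked almost none. Cells were gated into 14 classes by marker lists that hold none of the 45 genes, and a cell that met no gate was left unassigned. Counts were summed per library and class and tested with edgeR 4.0.16 (quasi-likelihood F-test, TMM, Benjamini-Hochberg adjustment over all genes, threshold 0.05) in R 4.3.3, and with DESeq2 1.42.0 as an alternative. Each SE given with an edgeR log2 difference is the size of that difference divided by the square root of the F statistic. It is not an error taken from the fit itself. Per-cell shares used counts thinned to 3000 UMIs. Library totals ran from 61117726 to 114419939 UMIs. On simulated counts the epithelial organ test on 12154 genes found 54.8% of 2-fold and 89.6% of 4-fold changes, with 5.99% false calls, and the interaction test on 14192 genes found 47.2 and 70.8%, with 3.91% false calls. All regulators and centriole genes and the 3 highest genes of each axoneme group and of each comparison list by mean CPM in oviduct epithelium were named, and the 15 genes most like the 45. Genes named beyond this, and in the per-cell account, were chosen after their values were seen. The 45 genes and the 7 comparison lists were chosen with earlier results of these data known. Alternatives covered scaling, low-count filters, cell filters, doublets, gates, subtraction of free RNA, the replicate block, thinning and leaving out each library.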

Additional observations from a re-analysis of the deposited data

Results flagged for a closer look

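The epithelial enrichment over mesenchyme differed between the organs in 16 of the 43 genes tested by edgeR's interaction test, where 19.1% of all genes passed (12.8% stronger in the oviduct). The values are log2 differences, oviduct minus uterus. They combine both organs, and Ccno, Rsph9, Ccdc39, Tekt2 and Tppp3 were called lower in uterine epithelium than in uterine mesenchyme. Among regulators and centriole genes they were 3.21 for Foxj1, 4.40 for Ccno, 9.17 for Deup1 and -0.67 for Plk4. Among dynein and spoke genes they were 9.46 for Dnah9, 9.62 for Dynlrb2, 4.49 for Rsph1 and 1.77 for Rsph9. In the ruler pair they were 2.51 for Ccdc39 and 4.69 for Ccdc40. For the remaining axoneme genes they were 2.61 for Tekt2, 3.36 for Tppp3, 2.24 for Cfap54, 9.64 for Cfap206, 1.07 for Mns1 and 2.55 for Enkur. Deup1, Dnah9, Dynlrb2 and Cfap206 had 0 UMIs in uterine epithelium, so their fitted sizes depend on the prior count of the fit and are no bounds. The calls of Foxj1, Ccno, Rsph1, Rsph9, Ccdc40, Tekt2 and Tppp3 were kept in 10 of 10 alternatives. The call of Plk4 was kept in 6 of 10, those of Deup1 and Cfap206 in 7 of 10, that of Dnah9 in 7 of 9, those of Dynlrb2, Ccdc39, Cfap54 and Enkur in 8 of 10 and that of Mns1 in 9 of 10. Without uterus replicate 2 the value was -0.42 for Plk4 (adjusted p = 0.487) and 1.42 for Enkur (adjusted p = 0.432). Calls were lost without oviduct replicate 1 for Plk4, Dnah9 and Cfap206, without oviduct replicate 2 for Plk4 and Deup1, without uterus replicate 1 for Dynlrb2, Cfap54 and Cfap206, and without uterus replicate 2 for Plk4, Deup1, Dnah9, Dynlrb2, Ccdc39 and Enkur. Over the alternatives the adjusted p reached 0.118 for Deup1, 0.110 for Dnah9, 0.105 for Dynlrb2, 0.0782 for Ccdc39, 0.143 for Cfap54, 0.0706 for Cfap206 and 0.163 for Mns1.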

How the results depend on the processing

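Of 804 alternative values for the 108 single-gene results that were called, 0 changed direction and 63 lost the call. A gene that an alternative no longer tested, or that had no adjusted p there, gave no value. The 63 therefore leave out calls that ended in this way. Among uncalled results, Rfx2 ran from -0.61 without uterus replicate 2 to 0.25, a reversed sign, without uterus replicate 1. With DESeq2, 21 of the 45 genes and 1491 of all genes were called between the organs in epithelium. In the interaction it called 10 and 1080, and in uterine epithelium against mesenchyme 7 and 5333. Leaving out 1 library gave 21 to 36 of the 45 genes and 1811 to 2924 of all genes between the organs, lowest without oviduct replicate 1 for the 45 and without oviduct replicate 2 for all genes. It gave 11 to 15 and 1754 to 2402 in the interaction. Same-numbered libraries' deviations correlated at -0.09 in epithelium and -0.08 to 0.15 in the other 6 classes. With 2 libraries per organ these values cannot exclude pairs. The numbers were not taken as pairs in the main tests, since the labels do not say which pool each stands for. With the replicate block, 31 of the 45 genes were called in epithelium, 2 in mesenchyme and 1 in blood endothelium, with 991 of all genes in mesothelium (524 without it) and 4 in myeloid cells. With doublets kept, 2 of the 45 were called in mesenchyme and 12 of all genes in myeloid cells, where edgeR otherwise called 0 (362 at an unadjusted p under 0.05). Without TMM scaling the split of all genes in uterine epithelium against mesenchyme went from 3310 higher and 4206 lower to 4264 and 3311. Thinned to 10000 UMIs, Foxj1 was in 25 and 27.7% of oviduct cells and 4.76 and 0% of uterine cells, and without thinning in 37.4 and 37.0% and in 20.5 and 9.80%. At least 5 of the genes were in 12.5 and 16.2% of oviduct and 4.76 and 4.55% of uterine epithelial cells at 10000 UMIs, and without thinning in 42.7 and 43.1% and in 20.5 and 23.5%, and in oviduct mesothelium in 2.02 and 1.54% at 10000 UMIs and 36.7 and 28.2% without thinning. Without the 8 richest cells, a setting chosen after seeing the data, the summed level was 368 and 334 CPM in oviduct and 38 of the 45 genes had both oviduct libraries higher. The share of all genes was not computed in that setting. Depth limits the 17 genes with no uterine UMI to lower bounds.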
